A study of Mus musculus with 16 samples.

Results

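ATAC-seq libraries of mouse hematopoietic stem and progenitor cells (HSPCs) were compared by replicate number across genotypes. The 8 libraries numbered 3 or 4 were set against the 8 numbered 1 or 2, which together are all 16 libraries of the series. Members were chosen by the number that ends each library title. Each pair of numbers held 2 libraries of each of 4 genotypes, so the comparison was balanced over genotype. WT mice were Ep300 fl/fl without Cre and P300KO mice were Mx1-Cre;Ep300 fl/fl. TET2KO mice were Ep300 fl/fl;Tet2-/- and P300KO_TET2KO mice were Mx1-Cre;Ep300 fl/fl;Tet2-/-. All genotypes, the controls included, carried the floxed Ep300 alleles and were given poly(I:C), which switches on the interferon-inducible Mx1-Cre in blood-forming and other cells. All mice were on the C57BL/6 background, both sexes were used in the study, and the sex and age of the mice behind each library were not given in the labels. Each library pooled bone marrow HSPCs from a pair of age-matched mice with the same genotype. The study calls these cells LSK, that is lineage-negative, Sca-1-positive and c-Kit-positive. The cells had been frozen and thawed, and dead cells were cleared with DNase before transposition. The labels of replicates 1 and 2 name a merged peak file for their genotype and those of replicates 3 and 4 do not. The protocol text was the same for all libraries, and nothing in it states what differed between the replicate pairs.

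ATAC-seq cuts DNA that is open to the Tn5 transposase, and a peak is a stretch where cuts pile up above the local background. How many weak sites pass as peaks depends on the number of reads and on how clean the library is, whereas strong sites such as the promoters of housekeeping genes are found in almost any library. In blood progenitors, distal open sites carry most of the cell type information. PU.1 (gene Spi1) and RUNX factors open enhancers of myeloid, lymphoid and stem cells, and GATA factors those of erythroid, megakaryocytic, mast and stem cells. tRNA genes are short, lie free of nucleosomes and are read by RNA polymerase III from promoter elements inside the gene.

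Lists of replicates 3-4 were longer and their peaks stronger. They held a median of 132438 peaks (range 130610 to 137335) and lists of replicates 1-2 held a median of 97732 (range 86039 to 110055), without overlap. At rank 50000, the −log10 p of the authors' peak caller had a median of 49.4 in replicates 3-4 and 9.52 in replicates 1-2 (range 34.8 to 64.1 against 4.11 to 21.7, n = 8 each), again without overlap. Both differences had an exact permutation p of 0.00154 (adjusted over 5 measures, 0.00193). Read counts were not part of the lists, so depth per library is unknown and no counting interval is given. WT replicate 1 stood apart from the other 7 libraries of its pair in 9 measures, among them chromosome X (1.23% of its strongest 50000 peaks) and the Spi1 string (6.88% of distal peaks), and where leaving it out changes a call or moves a called value strongly, the value without it is given beside the result. Peaks at Ep300 (3 to 8 in replicates 3-4 and 3 to 6 in replicates 1-2) and at Tet2 (7 to 9 and 3 to 7) do not show the deletions and so do not check the genotype labels. Among genes used to define such progenitors, Kit (1 to 4 peaks per list of 50000), Ly6a (1 to 3) and Cd34 (4 to 5) had peaks in all 16 lists. p-values here set a difference against the spread between libraries, each from a pool of mice. Whatever was shared within a replicate pair cannot be separated from it, so they do not measure how far other such sets would differ.

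**Figure D1:**
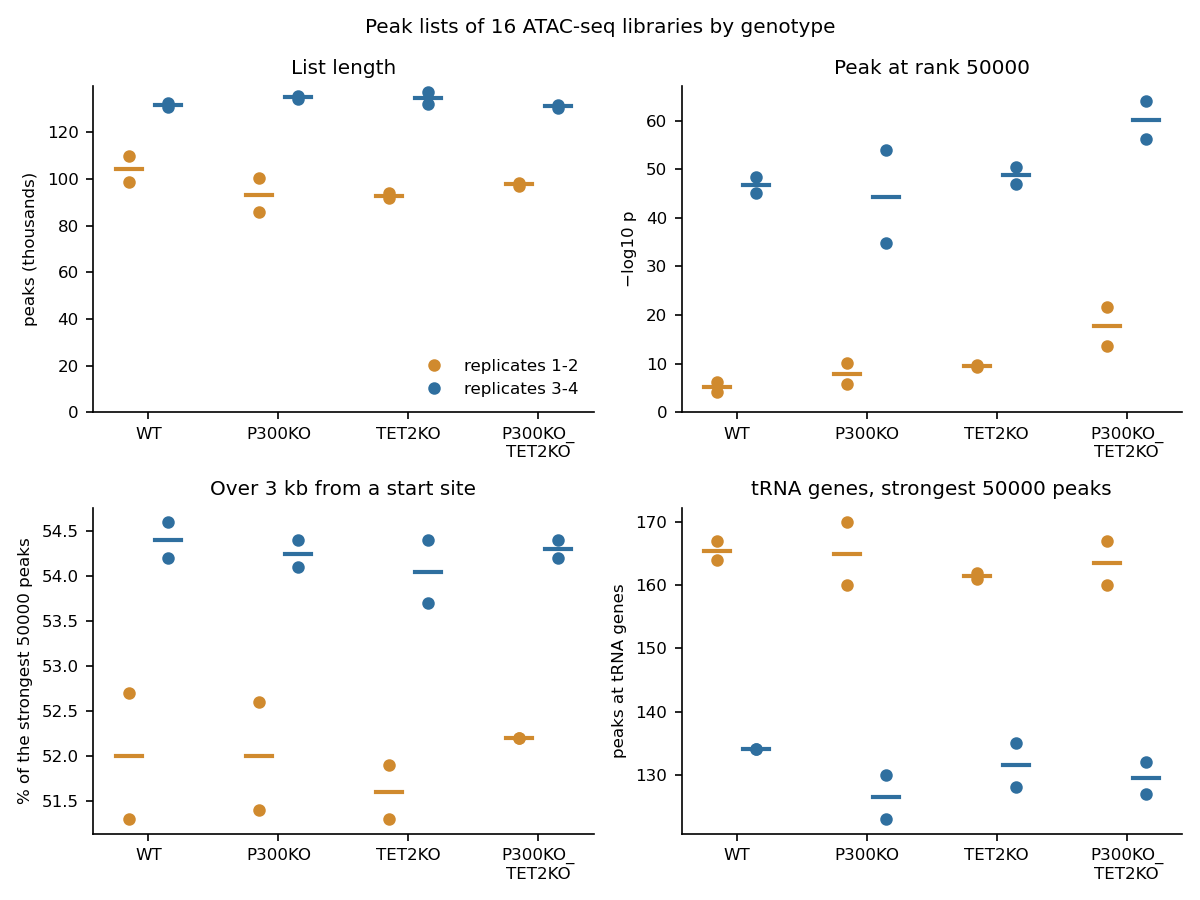
Each point is 1 library, placed by genotype, and short lines are means of 2 libraries. The panels give the number of peaks (in units of 1000), the −log10 p of the peak at rank 50000, the share (%) of the strongest 50000 peaks over 3 kb from a start site and the number of those peaks that overlap tRNA genes. In all 4 panels the 8 libraries of replicates 3-4 do not overlap the 8 of replicates 1-2, and tRNA genes go the other way from the rest (123 to 135 peaks against 160 to 170). The lower panels do not start at 0.

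With all peaks, sites found in every library of one replicate pair and in none of the other lay almost wholly on the side of replicates 3-4. Joining peaks that shared at least 1 bp in any of the 16 lists gave 296215 regions. Of these, 2704 (0.913%) had a peak in 8 of 8 lists of replicates 3-4 and 0 of 8 of replicates 1-2, and 4 (0.00135%) the reverse. The latter count was 7 without WT replicate 1, WT replicate 4 or TET2KO replicate 3 and 8 without P300KO_TET2KO replicate 2. The 2704 regions were narrow, with a median width of 324 bp against 973 bp for the 39310 regions found in 16 of 16 lists. They were mostly far from genes' starts: 19.2% had a transcription start site no more than 3 kb away, against 51.1% of regions in 16 of 16 lists and 26.7% of all regions. A further 41.9% lay in introns and 35.6% between genes. Mean GC around the summit was 48.5% and 56.7%, and 17.3% and 8.52% of bases were repeat-masked. Within genotypes the same imbalance was seen, with 19916 to 34524 regions in 2 of 2 libraries of replicates 3-4 and 0 of 2 of replicates 1-2 and 504 to 1073 the reverse.

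The 2704 regions were weak where they were found. Their median rank was 89222 in lists whose shortest counterpart in replicates 1-2 ended at 86039, and 2702 of the 2704 had a mean rank beyond 50000. A mean percentile of 80 or more was reached by 0 of them and by 20415 of the regions in 16 of 16 lists. A mean rank beyond the end of the longest list of replicates 1-2 (110055) was found for 131 of them. Detection changed by degrees: of 89111 regions in 8 of 8 lists of replicates 3-4, 44.1% were also in 8 of 8 lists of replicates 1-2, 14.2% in 7 of 8 and 3.03% in 0 of 8. Of 39440 regions in 8 of 8 lists of replicates 1-2, 39310 were in all 8 lists of replicates 3-4.

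**Figure D2:**
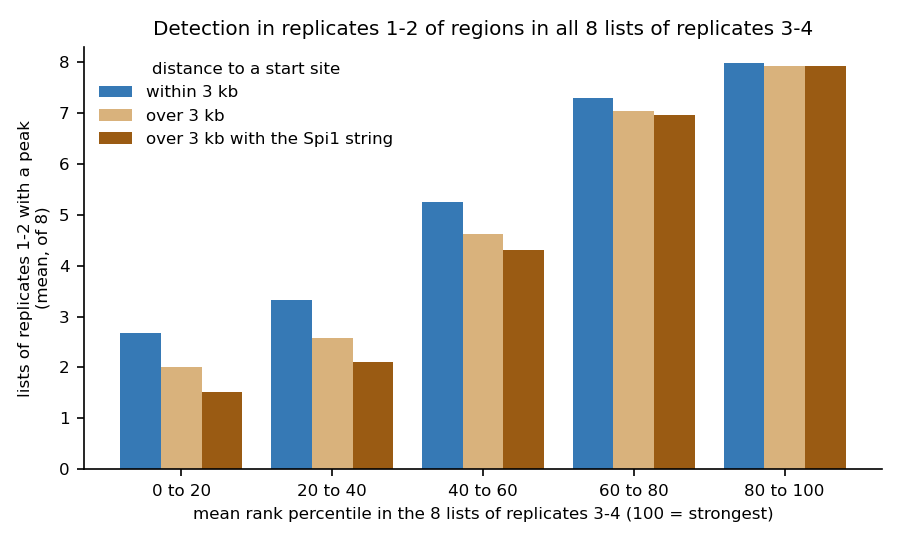
Regions found in all 8 lists of replicates 3-4 are split by their mean rank percentile there (x axis, 100 = strongest); bars give the mean number of the 8 lists of replicates 1-2 with a peak. Detection climbs from 2.68 lists (within 3 kb of a start site), 2.00 lists (over 3 kb) and 1.52 lists (over 3 kb with the Spi1 string) in the weakest bin to 7.98, 7.93 and 7.92 lists in the strongest.

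Detection in replicates 1-2 was also set out by kind of site and by rank in replicates 3-4. This covers only regions found in all 8 lists of replicates 3-4, so the regions were chosen through that pair, the reverse choice was not made, and the values describe this set alone. Between percentiles 40 and 60, promoter regions (within 3 kb, 6287 regions) had a peak in a mean of 5.25 of 8 lists and distal regions (16912) in 4.62. Distal regions with the Spi1 string were at 4.31 lists and those with the Gata string at 5.03. Between percentiles 20 and 40 the order was the same, with 3.33 lists for promoter regions, 2.58 for distal regions and 3.02 for those with the Gata string, and 244 of 1163 regions with the Spi1 string were in 0 of 8 lists, against 1577 of 10438 distal regions (15.1%). Distal regions with the Runx string were near all distal regions, at 4.68 lists between 40 and 60 and 2.56 between 20 and 40. Between percentiles 0 and 20, 23.7% of those with the Gata string were in 0 of 8 lists, against 21.4% of distal regions. These bins were drawn after other results were known and are given without a test, since regions of the same libraries are not replicates. The Spi1 string stood in 13.8% of the 2704 regions, in 7.47% of regions in 16 of 16 lists and in 5.90% of all regions. The Gata string stood in 8.76%, 7.34% and 8.96%.

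The 5 strongest regions limited to replicates 3-4 lay near or in 4 protein-coding genes and 1 predicted gene. By the naming rule, the highest mean rank percentile was 65.8 (range 58.4 to 74.3 over 8 lists) for an intronic region of Nfatc1, a calcium-regulated transcription factor. A region in Lif, a cytokine of the interleukin-6 family, followed (chr11:4262907-4263212, 3722 bp from the nearest start site) at 65.0. A region 911 bp from a start site of Junb, a subunit of AP-1, stood at 60.8 (chr8:84975535-84975732) and with a width of 198 bp. The other named regions were 402 bp from a start site of the predicted gene Gm17216 (61.7) and in Alg8, an enzyme of protein glycosylation (59.7). Each was absent from all 8 lists of replicates 1-2. The 4 regions limited to replicates 1-2 lay near the predicted genes Gm5626, Gm35190 and Gm7760 and in an intron of Lama1, a laminin subunit, with mean percentiles of 28.8 to 53.1 and 59.0% repeat-masked bases.

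Lists cut to equal length were less one-sided, and the balance depended on how they were cut. In the strongest 50000 peaks of each library, 79812 merged regions were formed, of which 67 (0.0839%) were limited to replicates 3-4 and 61 (0.0764%) to replicates 1-2. Without WT replicate 1 the latter count was 145. The counts were 171 and 32 in the strongest 80000, 222 and 36 when a list had to cover at least 50% of a region, and 113 and 368, with the larger count on the other side, when peaks were ordered by fold. In WT alone they were 4521 and 1095. The 2 sets differed in place: 16 of the 67 (23.9%) lay within 3 kb of a start site and 42 of the 61 (68.9%) did. In the full lists, 54 of the 61 regions had a peak in all 8 libraries of replicates 3-4, and 2 of the 67 had one in all 8 of replicates 1-2. All 67 and all 61 had a peak in at least 1 full list of the other pair, so none of these sites was limited to one pair in the full lists. The 5 strongest limited to replicates 3-4 lay near Gm28100 and Npc2 (a lysosomal cholesterol carrier) and in Itpr1 (a calcium release channel), Adgrl2 and Bahcc1, with mean percentiles of up to 41.9. The 5 strongest limited to replicates 1-2 lay 12739 bp from a start site of the vomeronasal receptor gene Vmn2r125, in Nkain3, near Gm49554 and Ndufaf6 and in Larp4b. Their mean percentiles were 50.9 to 74.1, and in single libraries the first 3 spanned 4.95 to 99.1.

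The make-up of the strongest 50000 peaks moved away from promoters in replicates 3-4. The share over 3 kb from a start site was 54.3 ± 0.261% in replicates 3-4 and 51.9 ± 0.549% in replicates 1-2 (SD, 8 libraries each), and the means were 2.32 percentage points apart. All 8 libraries of replicates 3-4 (53.7 to 54.6%) were above all 8 of replicates 1-2 (51.3 to 52.7%), and the two-sided exact permutation of pair labels within genotype gave p = 0.00154, the smallest this design allows (adjusted over 8 measures, 0.00617). The difference was 2.13 to 2.45 points in each genotype, and 5.62 points when every summit was counted as a peak. Peaks were wider, with a median of 627 ± 23.8 bp against 512 ± 107 bp (exact permutation, adjusted p = 0.00926), and the groups overlapped (578 to 655 bp against 324 to 663 bp). The width difference was 230 bp in WT and 8.50 bp in P300KO_TET2KO. It missed the threshold in the strongest 30000 peaks (62.9 bp, exact permutation, adjusted p = 0.105) and with every summit counted as a peak (6.94 bp, exact permutation, adjusted p = 0.861). Peaks with several summits made up 54.5 ± 2.65% and 45.3 ± 9.62% with overlapping ranges (exact permutation, adjusted p = 0.0165), and this difference of 9.28 points was 18.7 in WT and 0.0140 in P300KO_TET2KO. Mean GC at the summit differed by −0.153 points (exact permutation, adjusted p = 0.00926). Chromosome X held 2.01 ± 0.0683% of peaks in replicates 3-4 and 1.84 ± 0.268% in replicates 1-2 (exact permutation, adjusted p = 0.0165). The difference was 0.167 points. With 1 library left out it ranged from 0.0848 points (without WT replicate 1) to 0.249 points (without WT replicate 2). The call did not hold firmly. It was lost in the strongest 30000 peaks (0.0650 points, exact permutation, adjusted p = 0.122), with every summit counted as a peak (0.0350 points, exact permutation, adjusted p = 0.559) and when any 1 of 7 libraries was left out, namely WT replicates 1, 3 and 4, P300KO replicates 3 and 4 and TET2KO replicates 3 and 4 (0.0848 points and an adjusted exact permutation p of 0.0564 without WT replicate 1). Chromosome Y held 0.0112 ± 0.00523% and 0.0365 ± 0.0152% without overlap (exact permutation, adjusted p = 0.00617). The sex of the pooled mice was not given, so sex and replicate pair cannot be told apart in these 2 shares. The share over 100 kb from a start site (1.02 ± 0.0416% and 0.940 ± 0.189%, exact permutation, adjusted p = 0.270) and the repeat-masked share (9.54 ± 0.115% and 9.63 ± 0.229%, exact permutation, adjusted p = 0.488) did not pass the test. The former passed without WT replicate 1 (0.148 points from 0.0823, exact permutation, adjusted p = 0.00412), in the strongest 30000 (0.122 points), by fold (0.187 points) and with every summit (0.176 points), and was −0.0710 points in WT and 0.130 to 0.139 in the other genotypes.

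Ranks within equal lists were compared next, over the 28126 regions with a peak in all 16 lists of 50000. A rank percentile of 100 is the strongest peak of a list. By limma with genotype as a term, 5253 regions (18.7%) ranked higher and 5279 (18.8%) ranked lower in replicates 3-4 at an adjusted p under 0.05. In 832 (2.96%) all 8 libraries of replicates 3-4 were above all 8 of replicates 1-2, and in 1135 (4.04%) all 8 were below. Changes were moderate, with a median of 9.12 percentile points among those higher and −9.05 among those lower. Without WT replicate 1 the counts were 5741 and 5903. With peaks ordered by fold enrichment in place of −log10 p, 6116 regions were higher and 11206 lower of 26033 tested, so 35.3% of called regions were higher, against 49.9% in the main order, and the median over all regions was −3.56 points.

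Distal and promoter regions split between the directions. Of regions ranking lower, 73.7% lay within 3 kb of a start site, against 57.6% of those tested and 43.2% of those ranking higher. Among the 13487 regions within 1 kb, 12.9% ranked higher and 25.3% lower. Among the 6499 regions at 10 to 100 kb, 26.4% ranked higher and 11.1% lower. The median difference was −0.517 points within 3 kb and 2.43 points beyond it, and −8.55 and 3.52 points when peaks were ordered by fold. In each genotype alone the medians kept these signs, from −0.914 to −0.306 and from 1.85 to 2.71 points. Regions ranking lower were wider (median 1137 bp) than those ranking higher (930 bp). These are widths of regions merged over the 16 lists and are not comparable with the peak widths per library above.

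**Figure D3:**
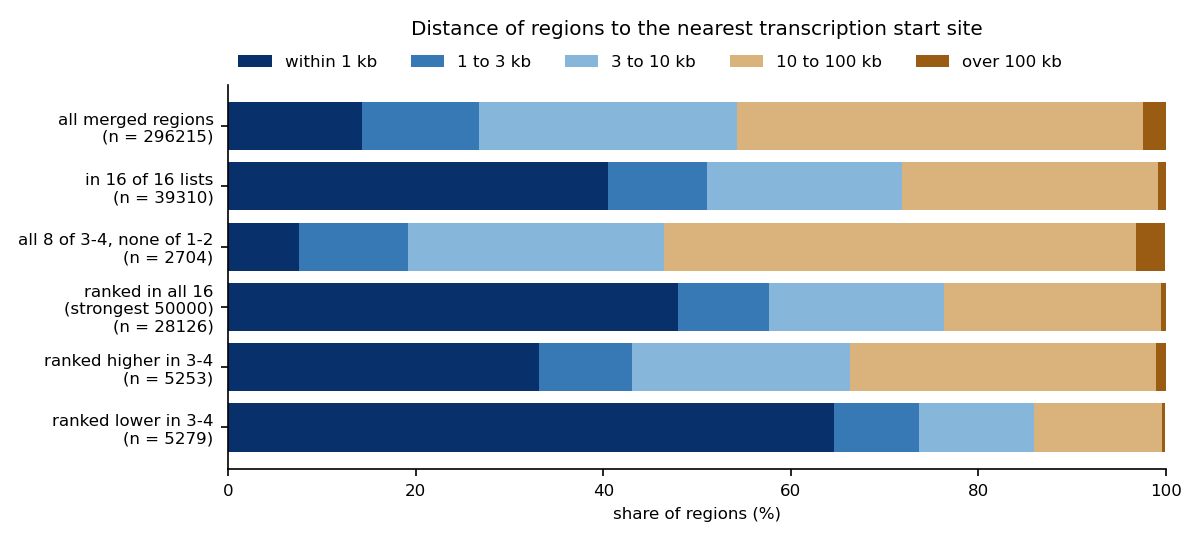
Bars give the share (%) of regions in 5 classes of distance to the nearest transcription start site, for 6 sets of regions with their number. Regions found only in replicates 3-4 have the smallest share within 3 kb (19.2%) and regions ranking lower in replicates 3-4 the largest (73.7%).

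The regions with the largest rank difference were distal in one direction and included tRNA genes in the other. All 10 named regions that ranked higher lay over 3 kb from a start site, in introns of Rbm33 and Hs6st3 or between genes. The largest difference was on chromosome 18, 70620 bp from a start site of Gata6, where percentiles were 64.1 to 77.3 in replicates 3-4 and 0.0490 to 58.7 in replicates 1-2. This gave 37.6 ± 5.73 points (SE; limma, adjusted p = 6.15e-05). The lowest value there was that of WT replicate 1, and TET2KO and P300KO_TET2KO libraries of replicates 1-2 were all at 47.2 or above. A region 25483 bp from a start site of Bhlhe40, a circadian and immune repressor, stood at 68.5 ± 6.69 and 34.2 ± 15.9 (SD, n = 8 each). One 5340 bp from Mefv, which encodes the inflammasome protein pyrin, stood at 74.2 ± 4.42 and 39.8 ± 20.2. The other named regions lay nearest to Gm13632, AC166110.4, March10, Gm48336 and Adgrf1, and the 10 differences were 34.1 to 37.6 points.

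The 10 named regions that ranked lower moved more, by −50.7 to −40.4 points, and 7 of them lay within 3 kb of a start site. The first lay at chr13:23446466-23447000, 914 bp from a start site of the predicted gene Gm46404. Its percentile was 10.4 to 27.8 in replicates 3-4 and 62.3 to 73.2 in replicates 1-2, a difference of −50.7 ± 3.66 points (SE; limma, adjusted p = 9.69e-08). A region in an exon of Ptpn18, a tyrosine phosphatase, stood at 0.827 to 15.4 and 27.3 to 65.7. One 885 bp from Atg101, an autophagy factor, was 248 bp wide and stood at 12.4 to 29.0 and 56.8 to 70.6. It is counted below for the locus of Nr4a1, an early-response nuclear receptor, since loci take in 10 kb either side of the gene. One at the start of Dirc2, a lysosomal transporter, stood at 4.21 to 21.5 and 49.9 to 64.9. Others lay near Utp6, Nr6a1, Tmsb4x and Aloxe3. Of the 10, 4 overlapped tRNA genes listed in RefSeq, and of the 10 that ranked higher 0 did.

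This led to all tRNA genes of RefSeq being examined, a set chosen after those values were seen and therefore given without a test. In the strongest 50000 peaks, tRNA genes (408 on the chromosomes used) overlapped 123 to 135 peaks in replicates 3-4 (median 131) and 160 to 170 in replicates 1-2 (median 163). By genotype and in the order of replicates 1 to 4, the counts were 164, 167, 134 and 134 in WT and 160, 170, 130 and 123 in P300KO. They were 161, 162, 135 and 128 in TET2KO and 160, 167, 127 and 132 in P300KO_TET2KO. No library of one pair reached the range of the other, and WT replicate 1 was like its pair. Of 114 ranked regions at tRNA genes, 77 (67.5%) ranked lower and 6 (5.26%) higher, beside 18.8% and 18.7% over all regions, and 37 lay wholly below (32.5%, beside 4.04%). Their median difference was −6.40 points, and −8.31 for the 57 that lay over 3 kb from a GENCODE start site, where regions in general moved up. The median was −7.16 to −5.46 points in each genotype and −17.8 points when peaks were ordered by fold, where all regions within 3 kb were at −8.55. In full lists 153 of 205 regions at tRNA genes were found in 16 of 16 lists, beside 39310 of all 296215 regions. Of the 205, 0 were limited to either pair, which is not read as a difference from the 0.913% of all regions limited to replicates 3-4.

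A pair of tRNA genes is shown as examples from the named regions, whose rule already asked that the pairs do not overlap. Sequences are from the RefSeq assembly GRCm38.p6 (mm10), each on the gene's own strand (minus in both), 5′ to 3′. Capitals mark the letters GTTCGANNC, part of the internal B box bound by TFIIIC, which were searched on the gene's strand and stand in 244 of the 408 tRNA genes (59.8%).
n-TRacg5 (arginine tRNA), chr13:23446792-23446864: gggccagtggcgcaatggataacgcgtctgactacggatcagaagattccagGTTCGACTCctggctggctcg
n-TRtct4 (arginine tRNA), chr11:69123482-69123568: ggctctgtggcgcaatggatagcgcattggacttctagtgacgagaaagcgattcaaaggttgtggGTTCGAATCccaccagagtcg

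The region with n-TRtct4 stood at 24.7 ± 6.88 in replicates 3-4 and 65.0 ± 5.59 in replicates 1-2 (percentile, SD, n = 8 each). The 6 regions that ranked higher did so by 1.65 to 5.83 points, among them those with n-TYgta7 (94.2 ± 1.35 against 91.0 ± 2.78) and n-TLaag4 (98.6 ± 0.633 against 96.2 ± 0.829).

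Other short or densely packed gene classes, also examined after values were seen, are set beside all promoters of protein-coding genes, of which 3394 of 13721 ranked lower and 1816 higher. Small nuclear RNA genes, whose products splice RNA, had 27 of 45 ranked regions lower and 2 higher. Small nucleolar RNA genes had 12 of 36 lower (33.3%) and 6 higher, and microRNA genes 33 of 95 lower (34.7%) and 13 higher. Promoters of histone genes had 30 of 39 regions lower and 1 (Hist1h4c) higher, with a median of −4.28 points beside −0.570 over those 13721 promoters. By fold the histone median was −31.1 points and that of all regions within 3 kb −8.55. Hist1h4k stood at 35.2 ± 10.4 in replicates 3-4 and 56.5 ± 8.79 in replicates 1-2 (SD, n = 8 each; limma, adjusted p = 0.00118). Hist1h3i stood at 56.0 ± 6.02 and 73.9 ± 4.80, and Hist1h1d, a linker histone, at 57.3 ± 4.66 and 72.8 ± 5.98. Ribosomal protein promoters had 37 of 91 lower and 10 higher (median −1.29 points). Hox promoters had 7 of 14 lower and 0 higher (median −5.64 points), and proteasome promoters, with 12 of 42 lower and 6 higher, were near the counts of all promoters. Of the 102 ribosomal protein genes, 82 had a promoter region in 16 of 16 full lists and 0 had one limited to replicates 3-4, beside 12676 and 323 (1.47%) of all 21911 protein-coding genes. For Hox genes these counts were 21 and 2 of 39 (5.13%). Olfactory receptor genes, silent in blood, had a promoter region in 16 of 16 lists for 24 of 1134 genes and one limited to replicates 3-4 for 2 (0.176%). With so few genes in the other families, counts of 0 to 2 limited to replicates 3-4 are not read as a difference from all genes.

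**Figure D4:**
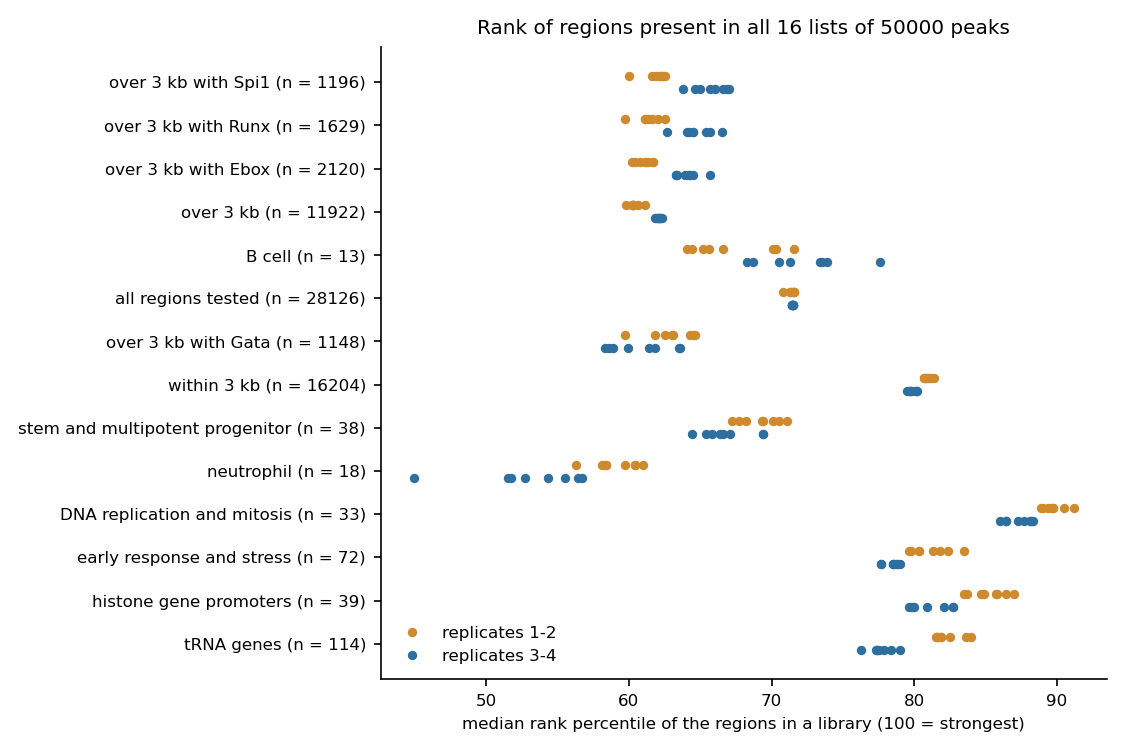
Each point is the median rank percentile (100 = strongest) of a kind of region in 1 library, over the n regions named at the left that were present in all 16 lists of 50000 peaks. Distal regions, above all those with the Spi1, Runx and Ebox strings, lie to the right in replicates 3-4, and tRNA genes (76.3 to 79.0 against 81.5 to 84.0), histone promoters (79.6 to 82.7 against 83.5 to 87.0) and early-response loci (77.7 to 79.0 against 79.6 to 83.5) lie to the left. The x axis does not start at 0.

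Short strings bound by blood transcription factors were counted within 100 bp of the summits of distal peaks in the strongest 50000, on both strands. The PU.1 string GAGGAAGT (Spi1) was in 10.5 ± 0.351% of distal peaks in replicates 3-4 and 9.31 ± 1.02% in replicates 1-2 (SD, n = 8 each; exact permutation, adjusted p = 0.00720). Both libraries of replicates 3-4 were above both of replicates 1-2 in all 4 genotypes, and the difference of 1.23 points was 0.879 without WT replicate 1. The Runx string TGTGGTT was in 13.5 ± 0.432% and 12.3 ± 0.857% (exact permutation, adjusted p = 0.00720; 0.853 points without WT replicate 1, from 1.18). The E-box CAGCTG was in 15.9 to 17.7% and 15.5 to 16.5%, a difference of 0.706 points (exact permutation, adjusted p = 0.0108). The Gata string AGATAA went the other way, at 9.58 ± 0.708% and 10.5 ± 0.584% (exact permutation, adjusted p = 0.00720), lower in all 4 genotypes with differences of −1.42 to −0.400 points, while group ranges overlapped (8.73 to 10.4% against 9.22 to 10.9%). In the strongest 80000 peaks the Gata difference was −0.417 points and missed the threshold (exact permutation, adjusted p = 0.124). Without WT replicate 3 the Spi1, Runx and Gata differences were 1.20, 1.06 and −0.898 points, each with an adjusted exact permutation p of 0.0562. The NF-kB string GGAATTTCC was in 0.243 ± 0.0213% and 0.206 ± 0.0237% (exact permutation, adjusted p = 0.0173), and the NF-Y string CCAAT in 19.4 ± 0.232% and 19.8 ± 0.338% (exact permutation, adjusted p = 0.0324). The NF-kB call was lost in the strongest 30000 and without WT replicate 3. The NF-Y call was lost in the strongest 30000, by fold and without any 1 of 5 libraries, namely WT replicates 1, 3 and 4, P300KO replicate 4 and P300KO_TET2KO replicate 1. The other 8 strings of 14 did not pass the test, AP-1 (TGAGTCA, 7.22 ± 0.368% and 6.94 ± 0.283%, exact permutation, adjusted p = 0.157) and CTCF (CTAGGGGGC, 1.30 ± 0.0521% and 1.30 ± 0.139%, exact permutation, adjusted p = 0.994) among them. The Sp string difference of −0.178 points (exact permutation, adjusted p = 0.651) became −0.352 points without WT replicate 1 and passed (exact permutation, adjusted p = 0.00720), as it did in the strongest 30000 and by fold. The AP-1 string passed in the strongest 30000 (0.499 points from 0.281) and 80000 (0.605 points) and without WT replicate 2 or P300KO replicate 3. The Irf and Myc strings passed in the strongest 80000, as did the CTCF string (0.134 points, exact permutation, adjusted p = 0.0408). The Nrf1 string passed by fold (−0.0306 points, exact permutation, adjusted p = 0.0144).

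**Figure D5:**
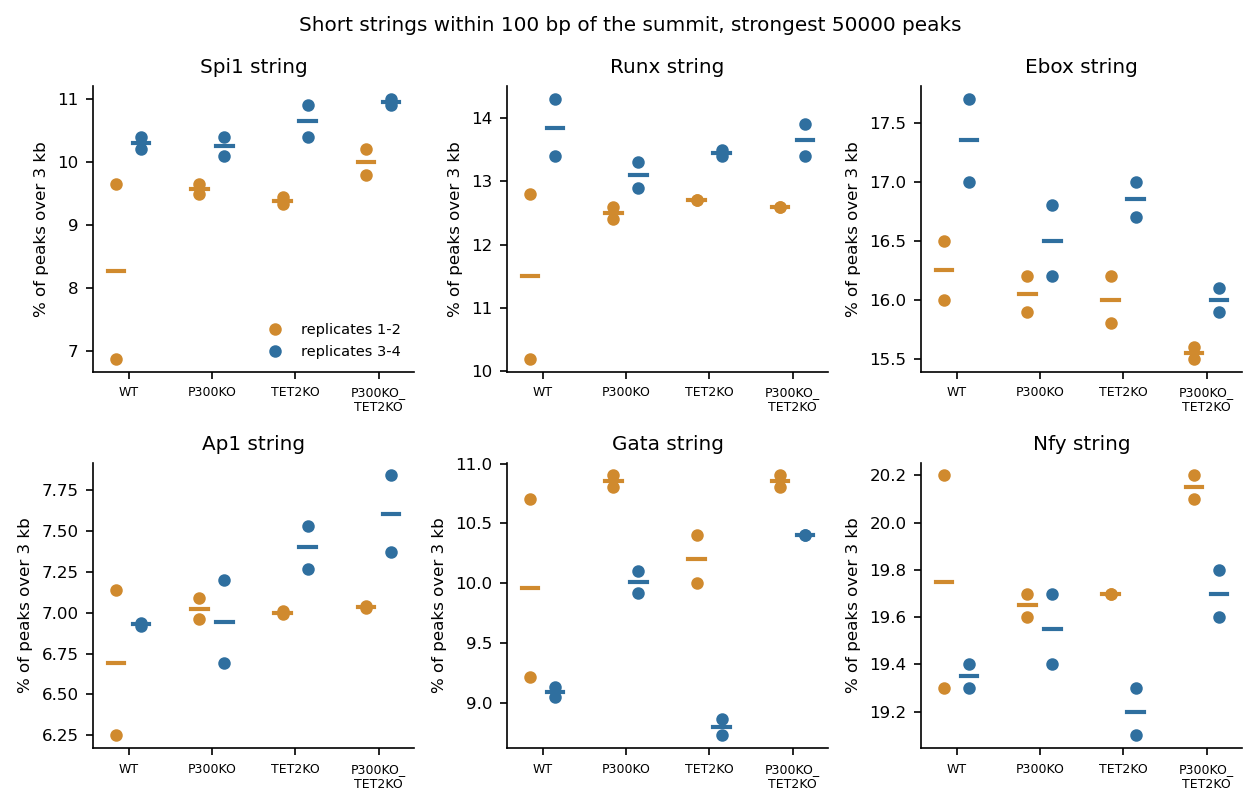
Each point is the share (%) of distal peaks (over 3 kb from a start site, strongest 50000) with a string within 100 bp of the summit in 1 library, by genotype, and short lines are means of 2 libraries. Spi1 and Runx shares are higher and Gata shares lower in replicates 3-4 within every genotype, and WT replicate 1 has the lowest Spi1 (6.88%), Runx (10.2%) and Ap1 (6.25%) share. The y axes do not start at 0.

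Ranks of distal regions present in all lists moved in the same directions. Of 11922 distal regions tested, 2986 ranked higher and 1391 (11.7%) lower. With the Spi1 string 34.7% ranked higher and 10.1% lower, with the Runx string 29.7% and 9.02%, and with the Ap1 string 32.1% and 10.4%. With the Gata string 12.8% ranked higher and 21.8% lower, with a median of −0.752 points beside 2.43 for all distal regions. That median was −0.522, −1.63 and −2.16 points in WT, P300KO and TET2KO and 0.229 in P300KO_TET2KO. The Gata string stood in 18.0% of distal regions that ranked lower, 4.92% of those that ranked higher and 9.63% of those tested. In the main order the median was 3.79 points with the Spi1 string and 3.57 with the Runx string. When peaks were ordered by fold, these medians were 3.32 and 3.02 points, below the 3.52 points of all distal regions. The Gata median by fold was −1.63 points.

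Examples are shown as the 101 bases centred on the summit, on the plus strand of mm10 (GRCm38.p6), with every match of the named string, on either strand, in capitals. They were taken from the distal regions with the largest rank differences without overlap that hold the string within 50 bp of the summit and whose sequence could be printed. Such a match is letters only and does not show binding. Within 50 bp, 7.22% of distal regions tested hold the Spi1 string, 9.10% the Runx string and 4.83% the Gata string.
Higher in replicates 3-4, Spi1 string, intron, 5653 bp from a start site of Mtmr7, chr8:40584811-40584911: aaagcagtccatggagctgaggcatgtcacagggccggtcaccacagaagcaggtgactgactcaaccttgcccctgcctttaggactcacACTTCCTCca
Higher in replicates 3-4, Spi1 string, intron of Nkain3, chr4:20589321-20589421: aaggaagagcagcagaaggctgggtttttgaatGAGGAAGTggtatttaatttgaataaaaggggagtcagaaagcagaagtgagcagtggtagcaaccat
Higher in replicates 3-4, Runx string, nearest to Adgrf1, chr17:43232931-43233031: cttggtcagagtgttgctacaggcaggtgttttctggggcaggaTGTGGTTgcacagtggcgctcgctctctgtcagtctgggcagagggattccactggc
Lower in replicates 3-4, Gata string, nearest to Pbk, chr14:65781676-65781776: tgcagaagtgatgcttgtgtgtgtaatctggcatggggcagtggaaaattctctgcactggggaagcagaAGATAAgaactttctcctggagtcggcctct
Lower in replicates 3-4, Gata string, locus of Ms4a2, chr19:11613220-11613320: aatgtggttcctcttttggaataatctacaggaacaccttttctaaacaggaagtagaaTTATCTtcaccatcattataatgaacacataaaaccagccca

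The Mtmr7 region stood at 70.5 to 82.4 in replicates 3-4 and 5.15 to 58.6 in replicates 1-2, a difference of 32.6 ± 4.95 points (SE; limma, adjusted p = 5.89e-05). The Pbk region stood at 7.58 to 42.0 and 52.5 to 77.2 (−40.4 ± 4.21 points; limma, adjusted p = 2.61e-06). The last lies near Ms4a2, the beta subunit of the mast cell IgE receptor, but outside the gene itself. It stood at 1.69 to 38.6 and 41.4 to 74.4 (−36.9 ± 4.92 points; limma, adjusted p = 1.88e-05).

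Lineage genes were then counted, to set the shift beside the cell types that a progenitor sort can hold. An LSK gate would remove mature B, T, NK, erythroid and neutrophil cells. In 15 lists of 201 genes, peaks of the strongest 50000 within the gene or 10 kb either side were summed per library. The ranges of the pairs overlapped in all 15 lists at this setting, though not at all others. Ranked regions of a list are to be read against all ranked regions, of which 18.7% ranked higher and 18.8% lower, and against the 16204 within 3 kb of a start site, of which 2267 ranked higher and 3888 lower. Most lists had few ranked regions. Ratios of means, replicates 3-4 to 1-2, were 0.857 to 1.15, beside 0.984 over 21911 protein-coding loci, and in full lists 1.09 to 1.52 beside 1.31. Of all protein-coding loci, 17 (0.0776%) had more peaks in all 8 libraries of replicates 3-4 and 41 (0.187%) had fewer. Among the 201 genes 1 did so, the heat shock gene Hspa1a, with 3 peaks in every library of replicates 3-4 and 4 or 5 in replicates 1-2. No peak of the strongest 50000 in any library lay at Cd8a and Ncr1 (T and NK cell), Car1 (erythroid), Fcer1a (mast cell), Ly6g and S100a9 (neutrophil) or Ins1 and Umod (other organs).

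Stem and multipotent progenitor loci held 61 to 72 peaks in replicates 3-4 and 72 to 83 in replicates 1-2, a ratio of 0.898. Within 3 kb of start sites alone the pairs did not overlap (means 19.6 and 27.5), whereas the ratio was 0.991 in the strongest 30000 and 0.952 in the strongest 80000. Meis1, a homeobox gene of stem cells, had 11 to 13 and 13 to 16 peaks, Hlf 3 to 4 and 2 to 7, and Fgd5 3 to 5 and 4 to 6. Of 38 ranked regions, 13 ranked lower (34.2%, beside 18.8% of all regions) and 5 higher. Their median was −2.09 points, −0.636 in WT alone and −3.18 without WT replicate 1. By fold it was −8.70 points, near the −8.55 of all regions within 3 kb. A region at the start of Gata2 ranked at 36.2 ± 8.43 and 62.6 ± 3.53 without overlap (SD, n = 8 each; limma, adjusted p = 2.73e-05). One in the locus of Procr, a stem cell surface receptor, but outside the gene itself, went the other way (46.3 ± 7.94 and 29.4 ± 11.7; limma, adjusted p = 0.0105). This and the other ranked regions named for lists are among the 3 largest called differences of their list and were chosen after values were seen.

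Neutrophil loci had the lowest ratio of the 15 lists in the strongest 50000, 0.857, with 35 to 44 and 38 to 50 peaks, and a median of −5.42 points over 18 ranked regions, of which 4 ranked lower (22.2%, beside 18.8% of all regions) and 2 higher (11.1%, beside 18.7%). The median was −3.27, −2.12, −3.67 and −1.89 points in WT, P300KO, TET2KO and P300KO_TET2KO alone. In the strongest 30000 peaks the ratio was 0.621 without overlap and in the strongest 80000 it was 1.01. Elane, neutrophil elastase, had 4 to 7 and 5 to 9 peaks. A region of its locus ranked at 29.6 ± 11.0 and 60.7 ± 4.82 without overlap (limma, adjusted p = 2.76e-05). That region lies outside the gene itself and 887 bp from a start site of another gene. Prtn3, proteinase 3, had 6 to 9 and 7 to 11 peaks and Gfi1, a repressor, 2 to 4 and 2 to 5. Elane and Prtn3 are neighbours whose loci overlap, so peaks between them count for both. Start sites of Prtn3 (26.6 ± 7.44 and 47.3 ± 9.14) and Mpo, myeloperoxidase (25.2 ± 9.93 and 47.8 ± 12.4), also ranked lower. The 2 regions that ranked higher, named after values were seen, lay at Ltf, lactoferrin of neutrophil granules, and Csf3r, the G-CSF receptor. Elane, Prtn3 and Mpo are active in early myeloid progenitors as well as in promyelocytes.

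Other myeloid lists were divided. Dendritic cell loci had the highest ratio in the strongest 50000, 1.15 (38 to 47 and 35 to 42 peaks), but 0.962 in the strongest 30000, with 7 of 21 ranked regions higher and 7 lower, and the named loci were Tcf4 (10 to 16 and 10 to 15 peaks), Zbtb46 (4 to 8 and 3 to 6) and Itgax (3 in every library and 1 to 3). Monocyte and macrophage loci were at 1.03 with 8 of 30 higher and 7 lower. Without WT replicate 1 the difference of means turned to −0.0893 peaks per library, both for this list and for its gene Cx3cr1, so both directions rested on that library. There Cd14, a receptor for endotoxin, had 1 to 3 and 3 to 5 peaks, Irf8 3 to 5 and 2 to 4, and Cx3cr1 18 to 22 and 14 to 22. A region inside Irf8, a monocyte and dendritic cell factor, ranked lower (15.6 ± 12.4 and 37.7 ± 9.17; limma, adjusted p = 0.00433). It lies at chr8:120751841-120752799, 41 bp from an annotated start site but away from both ends of the gene (120736358 to 120756694). Mast cell, basophil and eosinophil loci were at 1.03, with Mitf (5 to 8 and 3 to 8 peaks), Cpa3 (0 to 3 and 1 to 3) and Hdc (5 to 7 and 4 to 8) named.

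Lymphoid, erythroid and megakaryocyte lists had ratios of 0.911 to 1.04. B cell loci held 33 to 39 and 32 to 38 peaks (ratio 1.04), with Cd79b (3 to 5 and 2 to 5), Pax5 (3 to 4 and 2 to 4) and Cd22 (3 in every library and 1 to 4). Of 13 ranked B cell regions 5 ranked higher and 1 lower, beside 18.7% and 18.8% of all regions. A region in the locus of Cd79b, a B cell receptor chain, stood at 69.3 to 78.8 and 51.8 to 66.7 (limma, adjusted p = 5.45e-04). It lies outside the gene itself and 969 bp from a start site of another gene. Another region, between Igll1 and Vpreb1 (a surrogate light chain) and in the loci of both, stood at 72.5 ± 4.21 and 62.0 ± 7.06. Early lymphoid loci were at 0.911 with 4 of 30 higher and 4 lower, and Flt3, a receptor of multipotent and lymphoid progenitors, had 7 to 9 and 9 to 12 peaks, Ikzf1 8 to 12 and 9 to 13 and Satb1 3 to 5 and 3 to 6. T and NK cell loci were at 0.915 with 3 of 20 higher and 4 lower, and Nkg7 had 1 to 3 and 2 to 4 peaks, Gata3 3 to 4 and 4 to 6 and Cd4 3 in every library and 3 to 4. Erythroid loci were at 0.960 (0.873 in the strongest 80000) with 2 of 18 higher and 1 lower, and Ermap had 4 to 5 and 2 to 5 peaks, Klf1 4 in every library and 4 to 6 and Hbb-bt 1 to 3 and 2 to 4. A region near Klf1, the erythroid master regulator, ranked higher (95.1 to 98.3 and 91.8 to 96.4; limma, adjusted p = 4.07e-04). Megakaryocyte loci were at 0.927 with 4 of 27 higher and 4 lower, and Gp1bb had 2 peaks in every library and 2 to 5, Treml1 0 and 0 to 1 and Pf4 1 and 1 to 2.

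The early-response and stress list ranked lower more often than any other of the 15 lists. Of 72 ranked regions at genes that switch on within minutes of stimulation or handling, 33 (45.8%) ranked lower and 4 (5.56%) higher, beside 18.8% and 18.7% of all regions and 3888 and 2267 of the 16204 within 3 kb of a start site. The median was −3.17 points, and −3.41 to −3.17 in each genotype. By fold it was −19.5 points, beside −8.55 for all regions within 3 kb. Its loci held 88 to 93 peaks in replicates 3-4 and 93 to 104 in replicates 1-2, and with 50 kb either side the pairs did not overlap (means 237 and 255), whereas in the strongest 80000 the means were 109 and 110. Besides Hspa1a, the named loci were Dusp1, a phosphatase of MAP kinases (7 to 9 and 8 to 10 peaks), and Hspa1b (2 in every library and 2 to 4). The start of Ier2 stood at 43.5 ± 5.87 and 68.8 ± 4.51 (limma, adjusted p = 1.51e-05), and one at the start of Nr4a1 at 28.1 ± 10.3 and 58.6 ± 9.61 (limma, adjusted p = 2.63e-05).

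The remaining lists are given as values. Interferon response loci, of interest because all mice received poly(I:C), were at 0.971 with 3 of 28 regions higher and 7 lower, the latter near the share of all regions within 3 kb (3888 of 16204), and Isg15 had 2 peaks in every library and 2 to 4, Bst2 3 to 4 and 3 and Rsad2 2 to 4 and 2 to 4. There the starts of Oasl2 (35.2 ± 4.17 and 61.2 ± 7.04) and Irf7 (37.8 ± 5.14 and 59.8 ± 4.05) ranked lower without overlap. DNA replication and mitosis loci were at 0.942 with 4 of 33 higher and 9 lower, and Aurkb had 5 to 7 and 7 to 10 peaks, Mcm5 3 to 4 and 2 to 4 and Mki67 1 to 3 and 2 to 4. The 2 named Aurkb regions (−34.7 and −17.7 points) overlap the tRNA genes n-TWcca7 and n-TPcgg3. Stroma and endothelium loci were at 0.964, with Runx2 (14 to 18 and 15 to 22 peaks), Pecam1 (8 to 10 and 8 to 12) and Pdgfrb (8 to 11 and 6 to 10). Loci of other organs, which serve as a comparison, had the same mean number of peaks (26.8) in both pairs, with Ins2 (3 to 5 and 0 to 5), Cdx2 (3 to 4 and 2 to 5) and Olig2 (0 and 0 to 2). Fewer cells of a type and less open chromatin per cell cannot be told apart in such bulk libraries, and list strength (−log10 p at rank 50000, without overlap between the pairs) moved with every difference above, its part in them not tested.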

How the data were processed

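ATAC-seq peak lists of 16 libraries were used. Per the labels and the study's methods, the authors trimmed reads with cutadapt 1.9.1, aligned them to mm10 with Bowtie2 2.2.6, removed duplicates, shifted reads for the Tn5 cut and called peaks per library with MACS2 2.1.0. The deposited columns give each summit's fold enrichment (a ratio over nearby background), its −log10 p and −log10 q and the summit's offset in bp. Values were used to order peaks within a list and, at a given rank, to describe its strength. Depth is unknown, so list length and the −log10 p at rank 50000 stand in for it.

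Summits of 1 interval were counted as 1 peak, and the strongest 50000 by −log10 p made lists of equal length. Start sites were those of GENCODE M21, and the reference was GRCm38.p6. Values per library were tested by a two-sided exact permutation of pair labels within genotype, with Benjamini-Hochberg adjustment over 5 measures of length and strength, 8 composition measures or 14 strings. Rank percentiles were fitted with limma, with trend and genotype, over all regions, at a threshold of 0.05. Regions named were the 5 exclusive ones per direction with the highest mean percentile and the 10 with the largest rank difference without overlap, and up to 3 genes per list with the largest difference in mean peaks, those without overlap first, and some of these are not reported here. In simulated ranks of 28126 regions, 138 of 200 planted shifts of 15 points (69.0%) were recovered and 7 unchanged regions called. The planted shifts were larger than most called differences and in far fewer regions, with independent noise. These figures therefore do not give the recovery or error of the calls above.

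The comparison, lists, strings and tests were chosen with earlier results of these data known. tRNA and other small RNA genes, bins of rank, ranked regions named for lists and string shares by fold were chosen after the data were seen. Other alternatives were list sizes, fold order, q, windows, overlap, promoter definition, locus size and leaving out each library. limma 3.58.1 ran in R 4.3.3, and other steps in Python 3.11.15 (scipy 1.17.1, pandas 2.3.3, numpy 2.4.6; figures by matplotlib 3.10.9).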

Additional observations from a re-analysis of the deposited data

Results flagged for a closer look

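Over 27 measures and both replicate pairs, 54 groups of 8 libraries were checked for a library far from the rest, and 10 were found. Chance alone gives about 1 in 20 groups. In 9 of the 10 the library was WT replicate 1, set against the other libraries of replicates 1-2. Of its strongest 50000 peaks, 1.40% lay over 100 kb from a start site, 10.2% of bases were repeat-masked, 1.23% lay on chromosome X and 0.0700% on chromosome Y. In its distal peaks the Spi1 string stood in 6.88%, the Runx string in 10.2%, the Ap1 string in 6.25%, the Irf string in 6.82% and the Sp string in 8.23%. The other was WT replicate 3, with the Myc string (CACGTG) in 4.21% of distal peaks.

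In some measures both libraries of replicates 3-4 were above both of replicates 1-2 in one genotype and below both in another. These differences between genotypes were not tested. Median width of all peaks was higher in WT and lower in P300KO_TET2KO, and the differences lay 128 bp apart. The Cebp string was higher in P300KO and lower in TET2KO, 0.702 points apart. The Ctcf string was higher in P300KO and lower in TET2KO (0.132 points apart) and in P300KO_TET2KO (0.201 points apart). The Myc string was higher in TET2KO and lower in P300KO, 0.220 points apart. The Nrf1 string was higher in TET2KO (0.0684 points apart) and in P300KO_TET2KO (0.0386 points apart) and lower in P300KO.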

How the results depend on the processing

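Counts of regions limited to 1 pair moved most. For all peaks, those of replicates 3-4 (2704) came to 11794 with at least 7 of 8 against at most 1 of 8 lists, 4241 with −log10 q of at least 2 and 171 in the strongest 80000, and to 34524, 27241, 27138 and 19916 in WT, P300KO, TET2KO and P300KO_TET2KO alone. Those of replicates 1-2 (4) came to 38, 1 and 32, to 12 with windows around summits, and to 1073, 601, 504 and 621 by genotype. In the strongest 50000, those of replicates 3-4 (67) came to 482 with 7 of 8, 222 with at least 50% of the region covered, 171 in the strongest 80000, 113 by fold and 169 with windows, and to 4521, 2630, 2508 and 1937 by genotype. Those of replicates 1-2 (61) came to 358, 36, 32, 368 and 219, and to 1095, 1850, 1854 and 1883. Leaving out 1 library gave 2881 to 3852, 4 to 8, 71 to 90 and 62 to 145, the last without WT replicate 1.

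The width difference was 62.9 bp in the strongest 30000 and 6.94 bp with every summit as a peak (exact permutation, adjusted p = 0.105 and 0.861), 230 bp in WT and 8.50 bp in P300KO_TET2KO. The chromosome Y difference was −0.0370 points in WT. The Gata string difference was −0.417 points in the strongest 80000. The Ctcf string difference was 0.134 points there and the Nrf1 string difference −0.0306 points by fold, and both of these passed the test. Without WT replicate 3 the Gata, Spi1 and Runx differences were −0.898, 1.20 and 1.06 points (exact permutation, adjusted p = 0.0562 each), and over all libraries left out they ranged from −1.07 to −0.708, 0.879 to 1.57 and 0.853 to 1.50. With regions in at least 12 of 16 lists 8227 ranked higher and 6060 lower (57.6% of calls higher), and by fold 11206 ranked lower. Left-out libraries gave 4537 to 5741 higher and 4778 to 5903 lower. The median rank difference within 3 kb was −8.55 by fold and −0.914 in P300KO_TET2KO, that of tRNA genes −17.8 by fold, and that of distal regions with the Gata string 0.229 in P300KO_TET2KO. Causes of these changes were not tested. The difference in the share over 3 kb was 3.87 points by fold and 1.60 in the strongest 80000, that in GC −0.511 and −0.259. The former stayed between 2.15 and 2.50 points with each library left out. GC, masked bases and several summits were not run with every summit as a peak. Depth is unknown, so absence of a peak in replicates 1-2 means not detected. No paired analysis was possible because replicate numbers 1 and 2 are not shared with the group of 3 and 4.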
